A study of Mus musculus with 3 samples.

Results

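Sites of meiotic double-strand breaks that the CAST allele of PRDM9 placed on the CAST homologue alone were examined in testes of F1 males from a cross of the inbred mouse strains C57BL/6J (B6) and CAST/EiJ (CAST). The males carried 2 alleles of Prdm9, written HUM/CAST in the labels: a humanized allele and the CAST allele. The deposited table lists 24586 DMC1 hotspots, here called sites, and 403 of them met the definition. They lay on autosomes, had been assigned by the authors to the CAST allele, did not overlap an H3K4me3 peak that forms without PRDM9, and were chosen by an H3K4me3 B6 share under 0.1. The B6 share of a mark says how much of its signal came from the B6 chromosome, from 0 (all on the CAST homologue) to 1 (all on the B6 homologue). These sites are called CAST-homologue-only sites below. DMC1 was measured by ChIP-seq of single-stranded DNA in whole testis of a 10-week-old male, and H3K4me3 by ChIP-seq in whole testis of an adult male; there was 1 library of each. The file headers credit the H3K4me3 reads to an earlier study and do not say whether they are those of the H3K4me3 library of this series. The MNase-seq library, also of an adult male, was not used here.

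PRDM9 is a zinc-finger protein of meiotic germ cells that binds a DNA motif, trimethylates histone H3 on the nucleosomes beside it, and so directs SPO11 to cut there. The cut ends are trimmed to single strands, which the recombinase DMC1 coats while they search the homologue for a repair template. A sequence difference inside a motif can let PRDM9 bind one homologue and not the other, and such a site is marked and cut on one homologue only. In a hybrid the same allele can thus have sites on the B6 homologue, on the CAST homologue or on both.

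The 403 sites were 3.76% of the 10708 autosomal CAST-allele sites away from PRDM9-independent peaks that had an H3K4me3 share. The other classes, taken with the same filters, served for comparison. There were 1224 B6-homologue-only sites of the CAST allele (H3K4me3 share over 0.9), 6799 both-homologue sites of the CAST allele (share 0.3 to 0.7) and 563 sites of the humanized allele with a share under 0.1. The CAST-homologue-only sites were outnumbered by B6-homologue-only sites of the same allele on 19 of 19 autosomes. With 1 library per assay no difference below has a replicate check, sites of one library are not replicates of an animal, and no p-value was computed. Intervals are 95% intervals over sites, exact binomial for shares and from order statistics for medians, and do not cover variation between animals. The number of reads behind each value is unknown.

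Because the H3K4me3 share chose the sites, it is given as a description only. It had a median of 0.0588, and 22 of the 403 sites had a share of 0. Just inside the threshold lay a site 1798 kb from Cdh20 and a site in Lrmda, each at 0.0984, and a site in Cdcp3 at 0.0988. Their DMC1 B6 shares were 0.135, 0.0378 and 0.0323. Just outside lay 10 sites with a share of exactly 0.1, whose DMC1 B6 shares ranged from 0.00716 to 0.125 with a median of 0.0467.

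One CAST-homologue-only site fell in an annotated promoter window, taken as 250 bases before to 50 after a gene's start, and its sequence is shown to place the centre of the break signal within it. The window is that of Lrrc2, at chr9:110951295-110951594 on the plus strand (RefSeq, GRCm38.p6, the build named mm10 elsewhere). The DMC1 centre, at base 211 of the window and position 110951505, lay 40 bases before the gene's start. Capitals mark the 21 bases around that centre. The reference is B6 sequence, which is the homologue that carried little of either mark at this site.

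Lrrc2: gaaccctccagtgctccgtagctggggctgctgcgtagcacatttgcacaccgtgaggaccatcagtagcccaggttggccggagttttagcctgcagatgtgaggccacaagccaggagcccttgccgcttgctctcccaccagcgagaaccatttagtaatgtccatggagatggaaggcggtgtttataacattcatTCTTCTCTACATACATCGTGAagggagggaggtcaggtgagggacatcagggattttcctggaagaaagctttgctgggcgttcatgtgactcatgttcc

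The Lrrc2 promoter site had a DMC1 signal of 124, an H3K4me3 signal of 14.4 and DMC1 and H3K4me3 B6 shares of 0.0166 and 0.0852. A second CAST-homologue-only site lay 2.02 kb upstream, at position 110949481, with a DMC1 signal of 193, an H3K4me3 signal of 7.14 and shares of 0.00353 and 0.0536. This was the closest pair among the 403. A further pair of sites had centres just beyond a promoter window. Both windows are shown for an annotated start of the gene, from which capitals run to the end. Each is given 5′ to 3′ on the strand of its gene. The first is the window of Olfr353, an olfactory receptor gene, at chr2:36890797-36891096 on the minus strand. The second is that of Klk5, a kallikrein protease gene, at chr7:43842019-43842318 on the plus strand.

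Olfr353: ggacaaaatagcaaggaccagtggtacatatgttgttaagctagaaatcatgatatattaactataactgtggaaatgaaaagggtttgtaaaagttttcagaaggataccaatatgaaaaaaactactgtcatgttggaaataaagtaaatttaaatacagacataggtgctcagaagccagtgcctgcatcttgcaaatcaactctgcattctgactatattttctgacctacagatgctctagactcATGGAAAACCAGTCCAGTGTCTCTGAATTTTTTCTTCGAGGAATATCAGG

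Klk5: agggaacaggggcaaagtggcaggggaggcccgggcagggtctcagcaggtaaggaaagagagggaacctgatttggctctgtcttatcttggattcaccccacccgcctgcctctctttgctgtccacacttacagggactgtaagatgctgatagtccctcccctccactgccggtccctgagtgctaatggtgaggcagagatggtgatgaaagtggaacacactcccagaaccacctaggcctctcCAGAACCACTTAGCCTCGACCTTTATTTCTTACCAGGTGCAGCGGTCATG

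The DMC1 centre near Olfr353, at 36890700, lay 97 bases past the window, on the side of the gene. It had a DMC1 signal of 87.4, an H3K4me3 signal of 25.2 and a DMC1 B6 share of 0.0645. The centre at Klk5, at 43841906, lay 113 bases before the window. It was still inside the annotated Klk5 gene, which begins upstream of the start used for this window. There DMC1 was 248, H3K4me3 19.5 and the DMC1 B6 share 0.00515. The windows hold 53.7% (Lrrc2), 35.7% (Olfr353) and 55.7% (Klk5) G and C bases, with a median of 52.7% over all 32851 windows of the table. Within 500 bases of a window lay 5 of 403 CAST-homologue-only sites (1.24%, interval 0.404% to 2.87%), 14 of 1224 B6-homologue-only sites (1.14%), 46 of 6799 both-homologue sites (0.677%) and 2 of 563 humanized-allele sites on the CAST homologue (0.355%), with 0.775% over all CAST-allele sites. A centre inside a window was found at 0.248% of CAST-homologue-only sites and 0.233% of all CAST-allele sites. Sites on PRDM9-independent H3K4me3 peaks had been left out of every class, so a promoter site on such a peak could not be counted. These percentages thus do not give how often sites of the CAST allele lie at promoters in general. The other 2 CAST-homologue-only sites were near the starts of Dnah12, a dynein heavy chain gene, and Gm34675. The site near Gm34675 also lay inside Zfhx3.

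DMC1 followed the homologue that carried H3K4me3. Of the 403 sites 399 had a DMC1 B6 share, and 378 of these (94.7%, interval 92.1% to 96.7%) had one under 0.1. Over all CAST-allele sites with both shares the corresponding figure was 10.0%. No CAST-homologue-only site had a share over 0.5 (upper limit 0.92% of sites), and the highest was 0.25. The median DMC1 B6 share was 0.0153 (interval 0.0133 to 0.0179), and 33 sites had a share of 0. DMC1 came from another library than H3K4me3, and neither its signal nor its share was used by the rule. Every listed site is a DMC1 hotspot, however. Sites with H3K4me3 but no DMC1 peak could not enter, and the figures hold for DMC1 hotspots only.

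The shares of the 2 marks at the same sites are set side by side as a description, since the H3K4me3 share chose the classes. The DMC1 B6 share was below the H3K4me3 B6 share at 329 of 399 CAST-homologue-only sites (82.5%), with medians of 0.0153 for DMC1 and 0.0588 for H3K4me3. At humanized-allele sites on the CAST homologue it was below at 462 of 554 sites (83.4%), with a median DMC1 B6 share of 0.018, and 95.1% of the 554 had a DMC1 share under 0.1. At both-homologue sites it was also below at most sites, 4275 of 6640 (64.4%), with medians of 0.455 for DMC1 and 0.509 for H3K4me3. At B6-homologue-only sites, where the lesser homologue is CAST, the CAST share was lower for DMC1 at 1081 of 1218 sites (88.8%), with medians of 0.0106 for DMC1 and 0.0486 for H3K4me3.

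**Figure D1:**
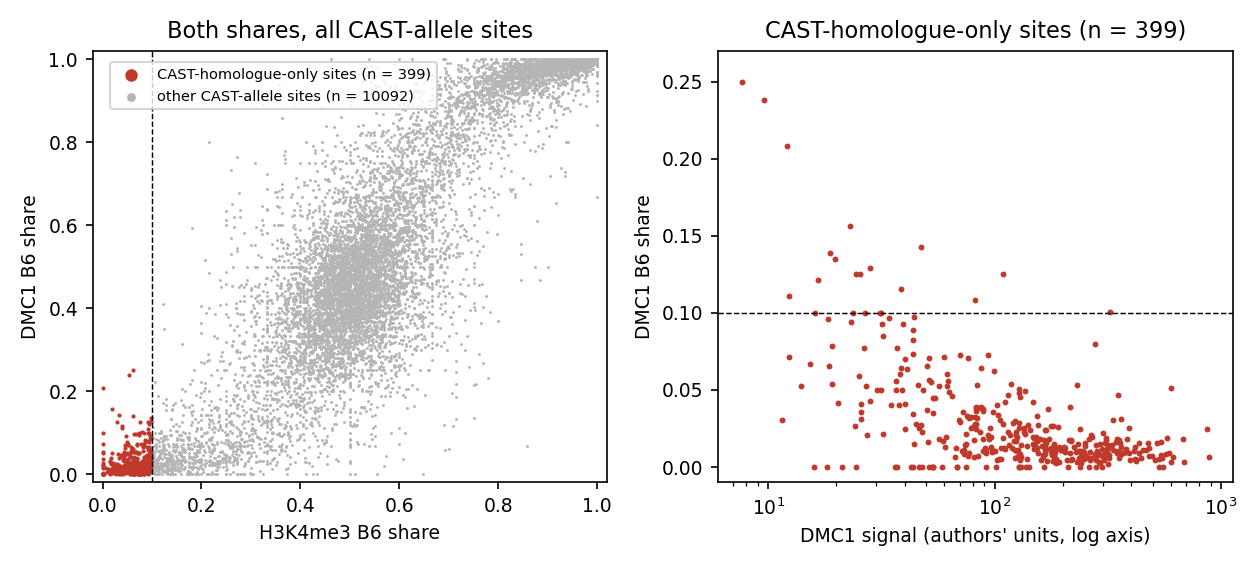
Left, DMC1 B6 share against H3K4me3 B6 share for CAST-allele autosomal sites with both, with the 399 CAST-homologue-only sites in red and the threshold of 0.1 dashed. Right, DMC1 B6 share of those 399 sites against their DMC1 signal; shares of 0.1 or more are mostly at the weak end, and 100 of the 101 strongest sites are below the dashed line at 0.1.

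The DMC1 B6 share had a higher median and a wider spread at weak sites. The sites were put into 4 equal groups by DMC1. In the weakest group (signal 7.63 to 61.0), the median DMC1 B6 share was 0.0526 and 18 of 98 sites were at 0.1 or more. In the second group the median was 0.0214, in the third 0.0112 and in the strongest (251 to 888) 0.00936, with 2, 0 and 1 sites at 0.1 or more. A share of exactly 0 was also most frequent in the weakest group, with 15 sites, against 6, 7 and 5 in the others. Across the 399 sites the Spearman correlation of DMC1 B6 share with DMC1 signal was -0.51, and with H3K4me3 signal -0.27. The share and the signal come from the same DMC1 reads, and the part of read depth in this was not tested.

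The 5 sites with the highest DMC1 B6 share all had a DMC1 signal below the class median of 128. The highest share, 0.25, was in Glis3, which encodes a zinc-finger transcription factor (chromosome 19, position 28263951), and its DMC1 signal of 7.63 was the lowest of the 403. Next came a site in Aldh3a2, a fatty aldehyde dehydrogenase gene (chromosome 11, 61242280), with a share of 0.238 and a signal of 9.59. A site 287 kb from Tns1, which encodes a focal adhesion protein (chromosome 1, 73623590), had a share of 0.208 and a signal of 12.1, although its H3K4me3 share was 0. The others were 3.04 kb from Lrrc66 (chromosome 5, 73603607; share 0.156, signal 23.0) and in Dlg2 (chromosome 7, 91791824; share 0.143, signal 47.4). The 4 sites with no DMC1 share had DMC1 signals of 15.1, 21.3, 22.2 and 122, the last in Csf1, a growth factor of macrophages.

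In strength the CAST-homologue-only sites stood between the classes. Their median DMC1 signal was 128 (interval 114 to 147; quartiles 61.2 and 251) in the authors' units. B6-homologue-only sites of the same allele had 262 (quartiles 112 and 480.5), both-homologue sites 74.9 (31.1 and 185) and humanized-allele sites on the CAST homologue 115 (55.6 and 234). On the log2 scale CAST-homologue-only sites were thus lower than B6-homologue-only sites by 1.04 (difference -1.04, interval -1.20 to -0.84), a direction found on 19 of 19 autosomes. They were higher than both-homologue sites by 0.77 (interval 0.61 to 0.97). From the humanized-allele sites they differed by 0.15, with an interval that includes 0 (-0.01 to 0.35). These intervals carry the spread of the CAST-homologue-only sites alone.

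The difference in DMC1 from both-homologue sites depended on how the class was drawn. It was 1.25 with an H3K4me3 share under 0.05, 0.24 with a share under 0.2, and -0.26 when all classes were drawn by the DMC1 share instead. The H3K4me3 signal, from the library that chose the sites, had medians of 10.8 at CAST-homologue-only sites, 17.8 at B6-homologue-only sites, 13.6 at both-homologue sites and 10.5 at humanized-allele sites on the CAST homologue.

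**Figure D2:**
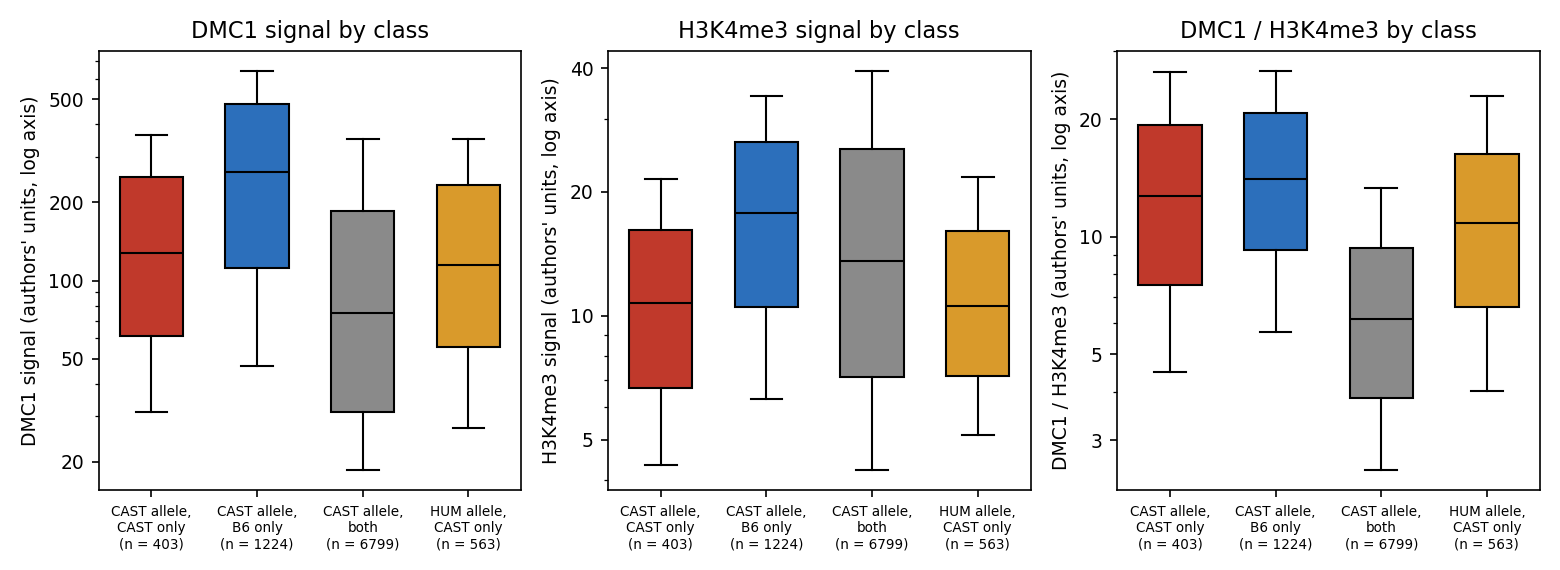
DMC1 signal, H3K4me3 signal and their ratio in the 4 classes (log axes, authors' units); lines are medians, boxes quartiles, whiskers the 10th and 90th percentiles. CAST-homologue-only sites, at the left of each panel, have a median DMC1 of 128, against 262 at B6-homologue-only and 74.9 at both-homologue sites.

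Few of the strongest CAST-allele sites were of this kind. Of the 200 strongest by DMC1, 2 were CAST-homologue-only sites, 87 were B6-homologue-only and 72 were both-homologue. The CAST-homologue-only sites held 4.02% of the summed DMC1 signal of CAST-allele sites, near their 3.76% of sites, while the B6-homologue-only sites held 21.9% with 11.4% of sites.

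The 2 strongest ranked 32nd and 33rd among CAST-allele sites. The first lay in Pbrm1, a subunit of a chromatin remodelling complex (chromosome 14, position 31054569), with a DMC1 signal of 888, an H3K4me3 signal of 30.9 and a DMC1 B6 share of 0.0063. The second lay in Fyn, a Src-family kinase gene (chromosome 10, 39499864), with DMC1 872, H3K4me3 17.0 and a share of 0.0247. Its ratio of DMC1 to H3K4me3, 51.3, was the highest among sites with H3K4me3 at or above the median of the class.

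Of the others among the 10 strongest, one lay in Dnajc19, a mitochondrial import co-chaperone gene (chromosome 3, 34072632; DMC1 677), and one in Casq2, the calcium buffer of the cardiac sarcoplasmic reticulum (chromosome 3, 102096388; DMC1 612). A site 244 kb from Tmem161b (chromosome 13, 83978627) had a DMC1 signal of 600.1 and a share of 0.00302, and a site 214 kb from Fgf10, a growth factor of limb and lung budding (chromosome 13, 119006940), had 599.6 and a share of 0.0511. Further ones were in Zzz3, part of a histone acetyltransferase complex (chromosome 3, 152457685; DMC1 592), in Phf14 (chromosome 6, 12015508; DMC1 577) and 18.9 kb from Cylc2, a gene of the sperm head cytoskeleton (chromosome 4, 51269497; DMC1 574). The 10 strongest sites had H3K4me3 signals of 16.3 to 36.2, all above the class median of 10.8.

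CAST-homologue-only sites had more DMC1 for their H3K4me3 than both-homologue sites did. The median ratio was 12.7 (interval 11.996 to 13.9) at CAST-homologue-only sites and 6.14 at both-homologue sites, 2.08-fold higher or 1.05 on the log2 scale (interval 0.97 to 1.18). The median was above that of both-homologue sites on 19 of 19 autosomes, by 0.61 (chromosome 19) to 1.55 (chromosome 14). Within bins of equal H3K4me3 the difference was 1.15, over 9 bins with at least 5 sites of each class, and it ran from 0.23 to 1.38 between bins. A ratio over 12.3, which is 2 times the median of both-homologue sites, was found at 211 of 403 CAST-homologue-only sites (52.4%, interval 47.4% to 57.3%), against 23.6% of all CAST-allele sites and 12.7% of both-homologue sites. The ratio has the library of the selection in its denominator.

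Against the sites of the other homologue the ratio differed little. B6-homologue-only sites had a median ratio of 14.1 (interval 13.6 to 14.8), which overlaps the interval of CAST-homologue-only sites (11.996 to 13.9). CAST-homologue-only sites were lower by 0.14 on the log2 scale (difference -0.14, interval -0.23 to -0.02), and higher on 5 of 19 autosomes. The intervals of ratio differences carry the spread of the CAST-homologue-only sites alone. At equal H3K4me3 the difference was 0.05 (between bins -0.97 to 0.49), and it was -0.05 among sites with H3K4me3 at or above the lower quartile, so no direction was established. Humanized-allele sites on the CAST homologue had a median ratio of 10.8, and CAST-homologue-only sites of the CAST allele were higher by 0.23 (interval 0.15 to 0.36). At equal H3K4me3 they were higher by 0.27, but between bins this ran from -0.20 to 0.62, so the direction was not the same in every bin. The difference at equal H3K4me3 was 0.16 among sites with H3K4me3 at or above the lower quartile.

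**Figure D3:**
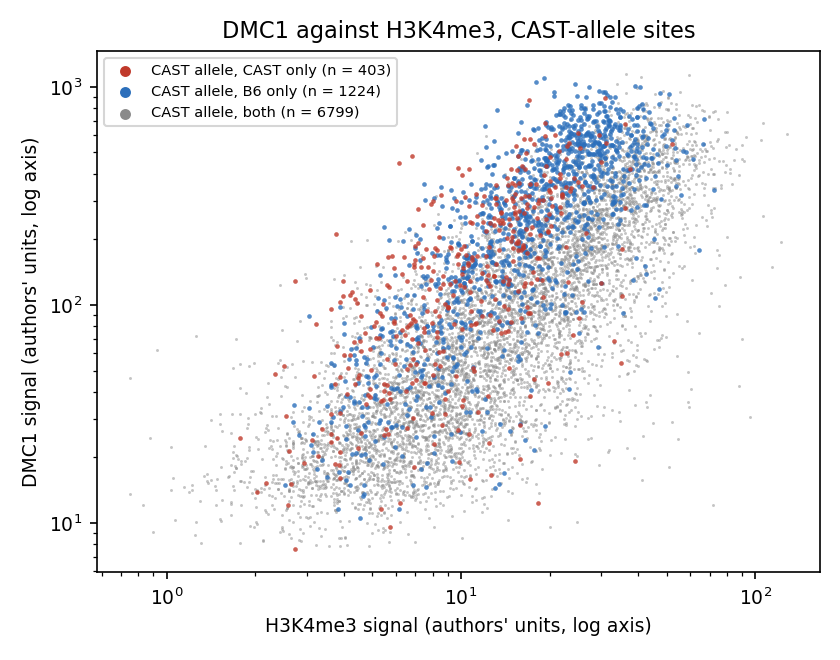
DMC1 signal against H3K4me3 signal (log axes, authors' units) for CAST-allele autosomal sites, with CAST-homologue-only sites in red, B6-homologue-only in blue and both-homologue in grey. Red and blue points lie mostly in the upper part of the grey cloud, and blue extends further to the upper right.

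Since sites marked on one and on both homologues split their signal differently, each signal was also multiplied by its share to give the amount on the marked homologue. On the CAST homologue the median ratio was 13.3 at 399 CAST-homologue-only sites, against 6.59 on the CAST homologue of both-homologue sites, 2.02-fold higher and 1.99-fold at equal H3K4me3 on that homologue. The corresponding values on the B6 homologue were 14.7 at B6-homologue-only sites and 5.32 at both-homologue sites, 2.76-fold higher and 2.42-fold at equal H3K4me3. The difference between these folds was not tested. On the marked homologue itself, the median DMC1 was 125 at CAST-homologue-only sites, against 40.8 on the CAST homologue of both-homologue sites, and the median H3K4me3 was 10.1, against 6.82.

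The ratio was higher toward both ends of the H3K4me3 share. On the B6 side the median rose from 7.76 at shares of 0.7 to 0.8 up to 14.0 at 0.9 to 1. On the CAST side, the bands on either side of the 0.1 threshold had nearly the same median. The median was 13.5 at shares of 0 to 0.02 (40 sites), 14.6 at 0.02 to 0.04, 15.2 at 0.04 to 0.06, 12.7 at 0.06 to 0.08 (interval 11.4 to 14.4) and 9.06 at 0.08 to 0.1 (94 sites, interval 7.65 to 11.9). Just outside the class it was 9.33 at 0.1 to 0.15, 8.23 at 0.15 to 0.2 and 6.84 at 0.2 to 0.3, and it was 6.14 in the middle band. The DMC1 B6 share followed, with medians of 0.00971 in the lowest band, 0.028 at 0.08 to 0.1 and 0.101 at 0.2 to 0.3. A DMC1 share under 0.1 was found at 90.2% of sites at 0.08 to 0.1. Outside the class it was found at 89.3% (0.1 to 0.15), 80.4% (0.15 to 0.2) and 48.5% (0.2 to 0.3), so it was not particular to the class. The median H3K4me3 signal also varied between the bands, from 15.6 at 0.02 to 0.04 down to 7.84 at 0.08 to 0.1 and 5.12 at 0.2 to 0.3. Its part in the differences between bands was not tested.

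**Figure D4:**
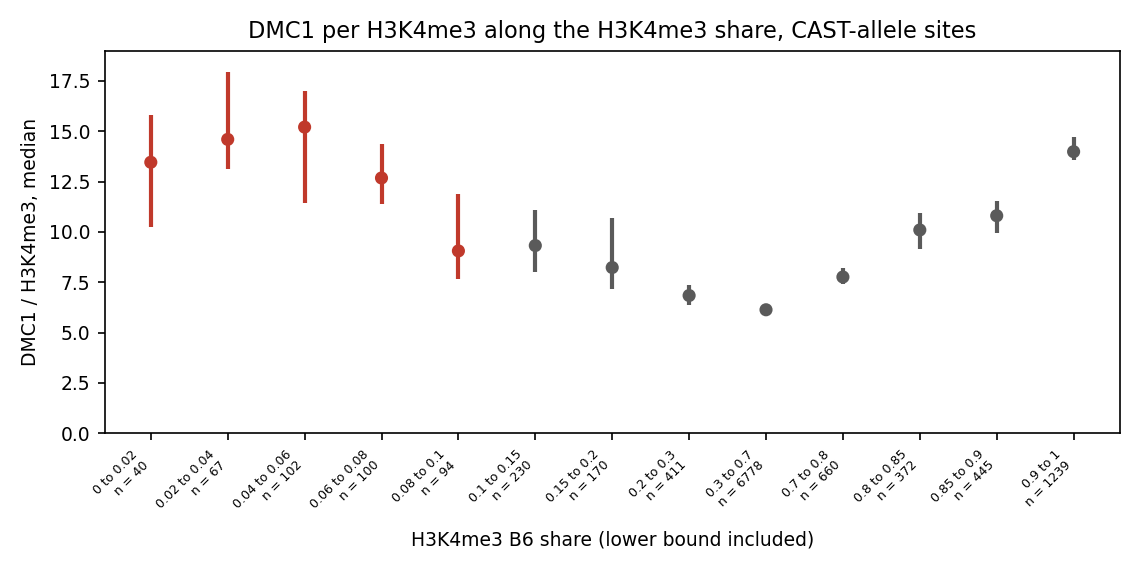
Median ratio of DMC1 to H3K4me3 (points, authors' units) with 95% order-statistic intervals over sites (bars) in 13 bands of H3K4me3 B6 share, CAST-allele autosomal sites; each band includes its lower bound. The 5 bands of CAST-homologue-only sites are red, and the ratio is lowest, 6.14, in the band of 0.3 to 0.7.

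Within the class the sites with more H3K4me3 had more DMC1. The Spearman correlation over the 403 sites was 0.64, against 0.77 at B6-homologue-only sites, 0.81 at both-homologue sites and 0.71 at humanized-allele sites on the CAST homologue. Both signals are measured at the same DMC1 peaks, and CAST-homologue-only sites also covered a narrower range of H3K4me3, with 10th and 90th percentiles of 4.33 and 21.7, against 4.21 and 39.4 at both-homologue sites. In 4 equal groups by H3K4me3 the median DMC1 was 50.3, 111, 188 and 283, while the median ratio was 11.98, 12.4, 13.8 and 13.9. In 4 equal groups by DMC1, which is the numerator, the ratio was 5.94, 10.8, 15.1 and 20.7.

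Ratios spanned from 0.678 to 72.4. The highest belonged to a site 22.6 kb from Atg4c (chromosome 4, position 99166587), with a DMC1 signal of 445 and an H3K4me3 signal of only 6.15. Among the sites with H3K4me3 at or above the class median, high ratios after that in Fyn were found in Phf14 (35.3), in Tiam1, an activator of the GTPase Rac (chromosome 16, 89955955; 34.7), and near Cylc2 (33.3). The lowest ratios in that stronger part of the class were at sites of little DMC1. The site 8.72 kb from Caln1 (chromosome 5, 130360686) had an H3K4me3 signal of 18.3 but a DMC1 signal of 12.4, a ratio of 0.678, and a DMC1 B6 share of 0.111. It was followed by sites 179 kb from Adamts20 (ratio 0.785), 1798 kb from Cdh20 (1.24), 1119 kb from Ptprd (1.30) and 155 kb from Ell2 (1.55).

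The strongest H3K4me3 was in Foxj3, a forkhead transcription factor gene (chromosome 4, position 119612709), at 52.2 with a DMC1 signal of 545. Next came sites in Ccdc91 (chromosome 6, 147626703; H3K4me3 37.6, DMC1 419), Dnajc19 (36.2) and Tbc1d22a (chromosome 15, 86281274; H3K4me3 36.1, DMC1 277). The fifth lay 4.48 kb from Sh3tc1 (chromosome 5, 35692703), with an H3K4me3 signal of 35.3 and a DMC1 signal of 109. DMC1 thus differed widely among sites of nearly equal H3K4me3.

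Inside protein-coding genes lay 203 of the 403 CAST-homologue-only sites (50.4%, interval 45.4% to 55.4%), against 52.1% of all CAST-allele sites, 53.5% of B6-homologue-only sites and 53.4% of both-homologue sites. Humanized-allele sites on the CAST homologue were inside genes at 58.6% (interval 54.4% to 62.7%). Exons and introns could not be assigned from the annotation used. The sites fell in 198 different genes, and 5 genes held 2 sites each. In Creb5, a transcription factor gene, the 2 sites lay 25.1 kb apart on chromosome 6, with DMC1 signals of 211 and 482 and ratios of 56.2 and 30.8. In Svopl they lay 13.6 kb apart on chromosome 6, with DMC1 signals of 232 and 99.1. The other 3 genes were Agbl1, Dock4, an activator of small GTPases, and Ptprd, a receptor tyrosine phosphatase.

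Over the annotation, 198 of 20661 autosomal protein-coding genes held a CAST-homologue-only site. Among genes of meiotic break formation and repair, 1 of 29 matched genes did. It held 1 of the 12 CAST-allele sites in this list (8.33%, with 3.76% overall), too few to compare. That gene was Zcwpw1, whose product reads the histone marks that PRDM9 leaves and acts in the repair of the breaks. The site (chromosome 5, position 137799388) had a DMC1 signal of 233, an H3K4me3 signal of 14.6, a DMC1 B6 share of 0.0101 and an H3K4me3 share of 0.0279. None of 15 axis and synaptonemal complex genes, which build the meiotic chromosome core, held one, and only 4 CAST-allele sites of any kind lay in them. In 14 long synaptic genes 3 of 70 CAST-allele sites were CAST-homologue-only (4.29%, with 3.76% overall). They were the site in Dlg2 named above and 2 in Ptprd (chromosome 4, 76658506 and 77300847), with DMC1 signals of 136 and 281.

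The share of CAST-allele sites that were CAST-homologue-only differed between chromosomes, from 2.36% on chromosome 16 (10 of 424, interval 1.14% to 4.29%) to 5.79% on chromosome 6 (39 of 673, interval 4.15% to 7.84%). Chromosomes 13 (5.15%), 7 (4.84%) and 4 (4.53%) followed chromosome 6, and the intervals of all 19 chromosomes overlapped one another. The B6-homologue-only share was between 9.31% (chromosome 9) and 13.6% (chromosome 15). There were 1.97 B6-homologue-only sites per CAST-homologue-only site on chromosome 6 and 4.90 on chromosome 16. Each chromosome was cut into 5 equal parts between its first and last listed site, counted from the centromeric end. In these parts the CAST-homologue-only share was 3.31%, 4.88%, 3.51%, 4.50% and 2.77%. Of its intervals, only those of the second part (3.99% to 5.91%) and the last (2.16% to 3.49%), and the fourth (3.66% to 5.46%) and the last, did not overlap. The B6-homologue-only share in the same parts was 12.4%, 11.3%, 11.3%, 10.3% and 11.8%.

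**Figure D5:**
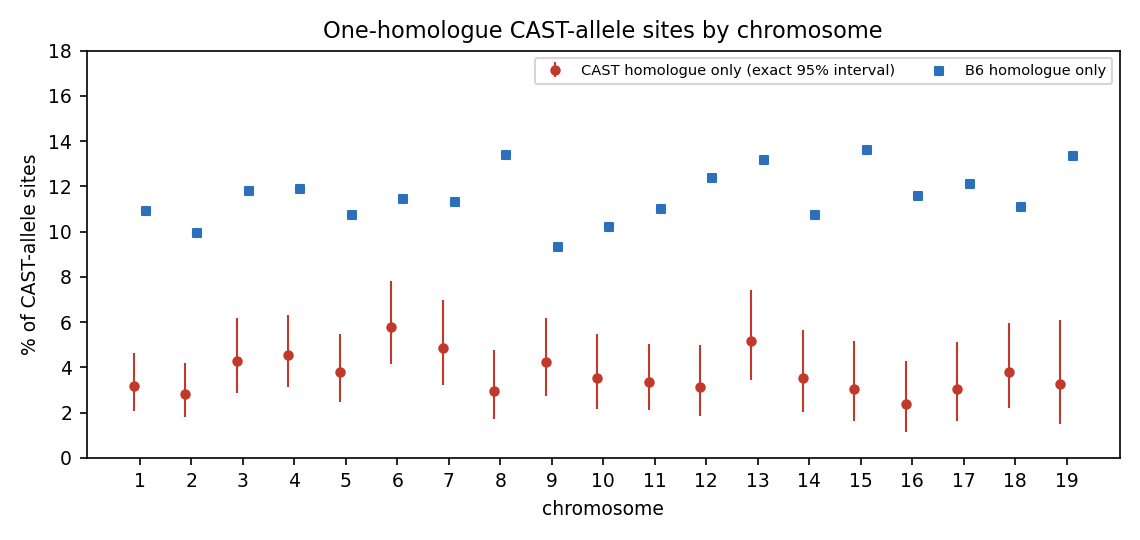
Share of CAST-allele autosomal sites that were CAST-homologue-only (red circles, with exact 95% binomial intervals) and B6-homologue-only (blue squares), by chromosome. The red values run from 2.36% (chromosome 16) to 5.79% (chromosome 6), and every blue value is above the red one of its chromosome.

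Sites near a CAST-homologue-only site divided between the homologues much as sites near the other classes did. Within 100 kb of a CAST-homologue-only site lay 910 other sites, 859 of them with a DMC1 B6 share. Of these 14.1% (interval 11.8% to 16.6%) had a share under 0.1 and 20.5% (17.8% to 23.3%) one over 0.9. Around B6-homologue-only sites the same figures were 14.6% and 20.1%, and around both-homologue sites 14.1% and 19.2%. Over all autosomal sites away from PRDM9-independent peaks they were 14.4% and 19.3%. The same site can be a neighbour in more than 1 class. Without neighbours that were themselves CAST-homologue-only sites, 12.2% of 841 had a share under 0.1, against 13.4% around B6-homologue-only and 12.7% around both-homologue sites. The neighbours had a median DMC1 B6 share of 0.467 around CAST-homologue-only sites, 0.484 around B6-homologue-only sites and 0.471 around both-homologue sites. They were sites of the CAST allele in 51.6% and of the humanized allele in 41.0% of cases around CAST-homologue-only sites, and in 51.9% and 39.7% around both-homologue sites. The nearest other site lay at a median of 33.3 kb from a CAST-homologue-only site, against 30.6 kb for B6-homologue-only and 29.3 kb for both-homologue sites. Another site lay within 5 kb of 38 of the 403 (9.43%). The share was similar in the other classes: 8.25% of B6-homologue-only, 9.41% of both-homologue and 10.3% of humanized-allele sites on the CAST homologue.

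Only 5 pairs of CAST-homologue-only sites lay within 30 kb of each other. Beside the pairs at Lrrc2, in Svopl and in Creb5, one pair lay 6.04 kb apart on chromosome 1 and far from genes, 333 kb from Tmem182, and one lay 8.72 kb apart on chromosome 9, 260 kb from Eepd1.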

How the data were processed

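Hotspots are lines of one deposited table, placed on mm10. Per the file headers, DMC1 and H3K4me3 signal are intensities from the authors' peak callers, and each B6 share is the fraction of signal on the B6 homologue. The flag for PRDM9-independent peaks (coded 1 for overlap, listed as another kind of value) and the PRDM9 allele were also assigned by the authors, per the file headers. The aligner was BWA, per the submitters' processing notes, which give version 0.7.15 for H3K4me3 and MNase and none for DMC1. The scaling of signals to depth is not stated in these sources, so a ratio is meaningful only relative to other sites.

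Sites, definitions and gene lists were chosen with earlier results of these data known. Values were compared as medians of log2 signal with no pseudocount, and at equal H3K4me3 in 10 bins holding equal numbers of sites. Genes are protein-coding genes of the RefSeq annotation of GRCm38.p6, given without exons. Named sites are the 10 strongest by DMC1, the extremes of ratio, H3K4me3 and DMC1 share (5 each), those at the threshold and those in listed genes; the sites near promoters, at Atg4c, in genes or pairs with 2 sites, and those without a DMC1 share were named after their values were seen. One site that this rule names is not reported here. The functions were tested on simulated data. Motif and base composition around the sites had been planned and were not run without a genome. Python 3.11.15, pandas 2.3.3, NumPy 2.4.6, SciPy 1.17.1 and matplotlib 3.10.9 were used.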

Additional observations from a re-analysis of the deposited data

How the results depend on the processing

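The 13 values were recomputed with one choice changed, under those of 15 alternatives that apply to each, and without each autosome. No value moved past its interval when an autosome was left out: the ratio stayed 1.03 to 1.09 above both-homologue sites on the log2 scale, and the percent of DMC1 shares under 0.1 stayed between 94.4 and 95.4. Of the other 113 values 88 stayed within the interval with the same sign. The percent of DMC1 shares under 0.1 was 90.2 with a threshold of 0.2 for the class, 96.8 with H3K4me3 at or above the lower quartile and 97.6 with DMC1 at or above it. The DMC1 difference from both-homologue sites was 1.25 (threshold 0.05), 0.24 (threshold 0.2), 0.40 (DMC1 at or above the lower quartile), 0.59 (means of log2 values), 0.58 (both-homologue class 0.4 to 0.6) and -0.26 (classes by DMC1 share). By DMC1 share, DMC1 differed by -1.43 from B6-homologue-only and -0.021 from humanized-allele sites. The ratio difference from both-homologue sites was 0.89 (threshold 0.2), 0.96 (means) and 0.79 (classes by DMC1 share). At equal H3K4me3 it was 0.96 (threshold 0.2), 0.99 (DMC1 at or above the lower quartile), 1.03 (smallest value of each mark added), 0.90 (classes by DMC1 share) and 0.995 (marked homologue only, an alternative chosen after seeing the data). At equal H3K4me3 the difference from B6-homologue-only sites, 0.05, became -0.0017 (threshold 0.2), -0.030 (PRDM9-independent peaks kept) and -0.053 (H3K4me3 at or above the lower quartile), and that from humanized-allele sites became 0.16 under the last. The correlation of DMC1 with H3K4me3 became 0.50 with H3K4me3 at or above the lower quartile, over fewer sites and a narrower range. With 5 kb flanks 56.1% of sites were in a gene. The causes of the other shifts were not tested. No paired analysis was possible because each assay has 1 library. Reads per site are unknown, so the error of a single share could not be given.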

Other observations

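Sites marked on the CAST homologue only also occurred outside the class described. Of sites that the authors left as UNK, a code the headers do not define, 75 away from PRDM9-independent peaks had an H3K4me3 B6 share under 0.1. They were weaker, with a median DMC1 of 27.3, a median H3K4me3 of 6.87 and a median ratio of 4.87, and 57 of 70 (81.4%) had a DMC1 B6 share under 0.1. The 70 UNK sites on the B6 homologue had similar medians, 23.5 for DMC1 and 5.22 for the ratio. A further 17 CAST-allele sites on the CAST homologue overlapped a PRDM9-independent peak, with a median DMC1 of 79.7, a median H3K4me3 of 22.0 and a ratio of 5.07, and 13 of 16 had a DMC1 B6 share under 0.1.

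The balance between homologues was different for the humanized allele, with 563 sites on the CAST homologue and 615 on the B6 homologue, against 403 and 1224 for the CAST allele. Sites of the humanized allele on the B6 homologue had a median ratio of 7.93, against 10.8 for its sites on the CAST homologue.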
